A study of Sus scrofa with 3 samples.

Results

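Genes that arrest the cell cycle, genes that p53 activates and a lysosomal enzyme used as a sign of senescence were described in mesenchymal stem cells (MSC) from pig adipose tissue. The genes were chosen by name from a set of 9 names, and 8 of them were found among the 30477 genes of the deposited table. They were the cyclin-dependent kinase inhibitors CDKN1A, CDKN1B, CDKN1C and CDKN2B, the cyclin CCND1, the p53 regulator MDM2, the secreted factor GDF15 and the lysosomal enzyme GLB1. The name CDKN2A did not match. The table holds an entry named P14ARF whose gene ID a separate table of IDs pairs with CDKN2A, and it is given below beside the 8 genes without being counted among them.

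RNA was sequenced from 3 cultures, all of them adipose-derived MSC of adult pigs grown in advanced MEM with human platelet lysate, per the labels' protocols. The labels state no treatment, passage, breed or age in years, and all 3 samples form a single group, which leaves no contrast of conditions. The cultures are called 1, 2 and 3 after their labels. Nothing in the labels says which animal each came from, so the spread between them may in part be technical.

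Progress through the cell cycle is driven by cyclins bound to cyclin-dependent kinases (CDK), which phosphorylate the retinoblastoma protein RB1 and release E2F transcription factors. Inhibitors of the CIP/KIP family (CDKN1A, CDKN1B and CDKN1C, encoding p21, p27 and p57) bind cyclin and CDK complexes, whereas INK4 inhibitors (CDKN2A and CDKN2B, encoding p16 and p15) bind CDK4 and CDK6. The transcription factor p53 activates CDKN1A, MDM2 and GDF15 after DNA damage and other stresses, and the MDM2 protein in turn targets p53 for degradation. Stromal cells that are expanded in culture are known to slow and eventually senesce, a state in which p21, p16 and lysosomal beta-galactosidase activity are widely used as markers.

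Culture 1 stood apart in composition. The libraries held 51788677, 62248183 and 64774044 reads over genes in cultures 1, 2 and 3, and protein-coding genes took 70.3%, 88.6% and 88.8% of them. Most of the difference was small RNA, at 28.3%, 9.12% and 8.36% of the reads. Values are RPKM, reads divided by the length of the gene model and by the total of reads counted, so a gene of culture 1 is divided by a total that holds more small RNA. Over 10474 genes whose mean reached 1 RPKM, called expressed genes here, the median log2(RPKM + 0.5) was 2.52, 2.89 and 2.72 in cultures 1, 2 and 3. With median-of-ratios size factors these medians were 2.50, 2.64 and 2.91, and with values scaled to protein-coding reads they were 2.73, 2.79 and 2.62. For the 8 genes, the order of the cultures is therefore given under all 3 scalings where it changes. Values of the other genes are on the deposited scale, and an order of cultures stated in words for one of them held under all 3 unless said otherwise. All 6 MSC markers (THY1, NT5E, ENG, CD44, PDGFRB and COL1A1) lay above 1 RPKM, with a summed level of 535 to 1007 RPKM. Of 17 markers of other cell types, 14 lay below. PECAM1 of endothelial cells (1.31 to 2.97 RPKM, overlapping the expressed genes DDX5 and POLG2) and CD14 of monocytes (1.78 to 2.29) lay above. The call of PECAM1 (limma, adjusted p = 0.024) ended without culture 2 (0.37), without culture 3 (0.053) and with a plain prior variance (0.062). Desmin (DES), a filament of muscle, had 0.138, 6.37 and 0.303 RPKM in cultures 1, 2 and 3 and was not decided.

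Whether each gene lay above or below 1 RPKM was tested with limma on log2(RPKM + 0.5), and an adjusted p under 0.05 counted as a call. Of the 8 genes, 6 lay above 1 RPKM, 0 below and 2 were not decided. Among all 29479 genes with a read, 30.6% lay above and 60.8% below. CDKN1A was by far the highest, then came GLB1 and CCND1, then MDM2 and CDKN1B, then GDF15, and CDKN1C and CDKN2B were the lowest. The values of CDKN1A did not overlap those of GLB1, and those of CCND1 did not overlap those of MDM2. The remaining neighbours in this order overlapped between cultures: GLB1 with CCND1, MDM2 with CDKN1B, CDKN1B with GDF15, GDF15 with CDKN1C, and CDKN1C with CDKN2B. Their mean log2 differences were within the SD between cultures, except for GDF15 over CDKN1C. That difference was 2.68 ± 2.60 (SD), and GDF15 was the higher in 2 of the 3 cultures.

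**Figure D1:**
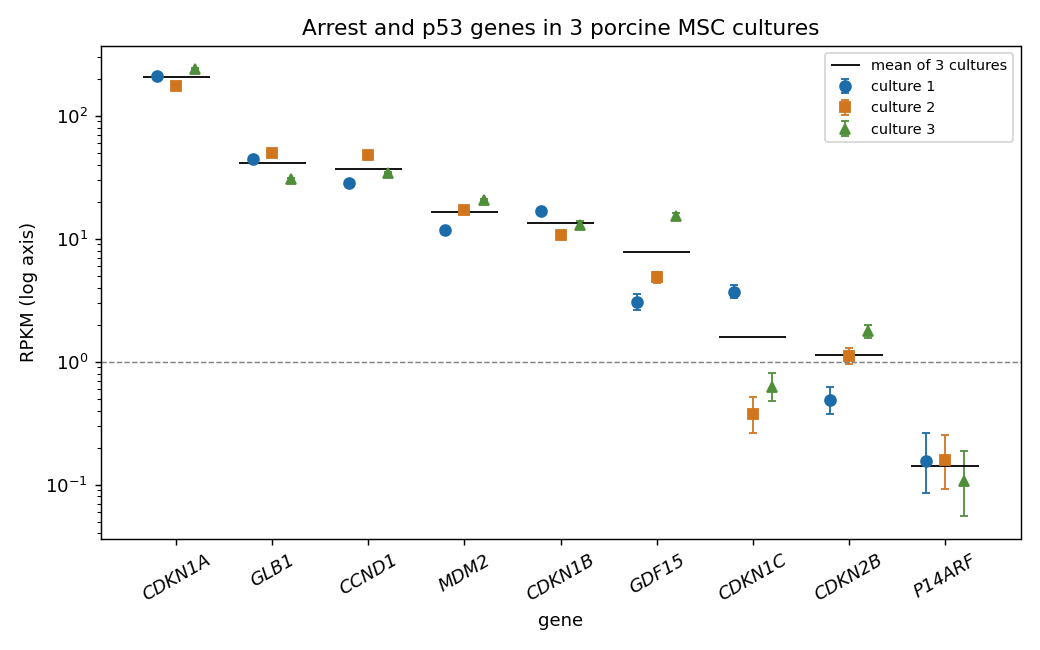
RPKM on a log axis of the 8 genes and of the P14ARF entry in cultures 1, 2 and 3. Bars are 95% exact Poisson intervals of the reads, horizontal lines are means of the 3 cultures and the dashed line is 1 RPKM. CDKN1A lies between 174 and 240 RPKM, while GDF15 and CDKN1C are spread over 4.99-fold and 9.98-fold.

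Among the CIP/KIP inhibitors, CDKN1A had by far the highest level in every culture. CDKN1A (ENSSSCG00000001565, susScr11 chromosome 7, 32359455 to 32363761) encodes p21, the best known target of p53 and an inhibitor of CDK2 complexes. It had 211, 174 and 240 RPKM in cultures 1, 2 and 3, from 20848, 20622 and 29669 reads, a mean of 209 ± 33.4 RPKM (SD, n = 3). In the deposited values culture 3 was highest and culture 2 lowest, 1.38-fold apart. The range was 1.91-fold with median-of-ratios factors and 1.53-fold when scaled to protein-coding reads. The mean level of CDKN1A exceeded that of 99.2% of the genes tested. Its mean lay 7.11 ± 0.32 (SE) above 1 RPKM on the log2 scale (limma, adjusted p = 9.9e-21). Its log2 SD of 0.23 in the deposited values was below the median of 0.31 over all expressed genes. The log2 SD was 0.47 with median-of-ratios factors and 0.32 when scaled to protein-coding reads, where no median over genes was taken. Scaled to protein-coding reads, culture 1 was highest at 247 RPKM and culture 3 followed at 222, so which of them leads depends on the scaling. Culture 2 was the lowest under all 3 scalings. In bulk RNA, more cells that express a gene and more RNA per cell cannot be told apart, here and below.

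CDKN1B (ENSSSCG00000037144, chromosome 5, 59731206 to 59735831) encodes p27, which holds cells in quiescence and is regulated largely by protein degradation. It had 16.7, 10.7 and 13.0 RPKM in cultures 1, 2 and 3, a mean of 13.5 ± 3.06 (SD, n = 3), and was called above 1 RPKM (limma, adjusted p = 3.0e-14). Culture 1 was highest and culture 2 lowest under all 3 scalings, with a range of 1.57-fold in the deposited values and 1.98-fold when scaled to protein-coding reads.

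CDKN1C (ENSSSCG00000040461, chromosome 2, 2019490 to 2021853) encodes p57, an inhibitor whose gene is imprinted in mouse and human. It had 3.72, 0.372 and 0.626 RPKM in cultures 1, 2 and 3, from 299, 36 and 63 reads. Culture 1 alone was above 1 RPKM and stood 9.98-fold above culture 2, while the 95% Poisson intervals of cultures 2 (0.261 to 0.515 RPKM) and 3 (0.481 to 0.801 RPKM) overlapped. These intervals cover counting error only, and how often they separate over all genes was not counted. The mean of 1.57 ± 1.86 RPKM (SD, n = 3) was not decided (limma, adjusted p = 0.82). Without culture 1 the gene was called below 1 RPKM (limma, adjusted p = 0.015). Its log2 SD of 1.22 exceeded that of 97.0% of the expressed genes. In the test of spread against genes of like level, which called 0% of genes at an adjusted p under 0.05 and 5.93% at an unadjusted p under 0.05, its unadjusted p was 0.033 and its adjusted p 0.78. An adjusted p above the threshold in this test does not show that the cultures did not differ. The order of the cultures was the same under all 3 scalings. Small RNA took 28.3% of the reads of culture 1, and its part in the level of CDKN1C was not tested beyond the scalings.

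Ratios within a culture do not depend on how libraries are scaled. CDKN1A RPKM exceeded CDKN1B RPKM by 12.6-fold, 16.3-fold and 18.4-fold in cultures 1, 2 and 3, a mean log2 ratio of 3.96 ± 0.28 (SD, n = 3). It exceeded CDKN1C RPKM by 56.9-fold, 467-fold and 384-fold. Of the summed RPKM of the 3 genes, CDKN1A took 91.2%, 94.0% and 94.6%, CDKN1B took 7.22%, 5.76% and 5.13%, and CDKN1C took 1.60%, 0.201% and 0.246%. The ranking of the 3 inhibitors was thus the same in each culture, and the share that varied most relative to its size was that of CDKN1C.

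**Figure D2:**
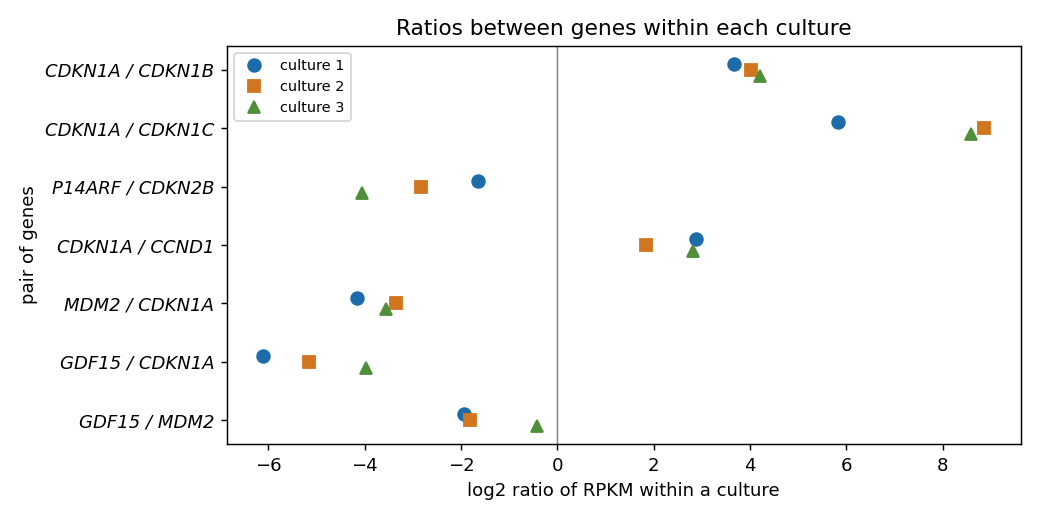
Log2 ratio of RPKM between pairs of genes within each of cultures 1, 2 and 3. CDKN1A over CDKN1B stays between 3.66 and 4.21, while CDKN1A over CDKN1C runs from 5.83 in culture 1 to 8.87 in culture 2, and GDF15 over CDKN1A from -6.11 in culture 1 to -3.98 in culture 3.

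The INK4 locus was little expressed. CDKN2B (ENSSSCG00000034120, chromosome 1, 200761004 to 200766056) encodes p15, an inhibitor of CDK4 and CDK6 that TGF-beta induces in several human cell types. It had 0.486, 1.11 and 1.77 RPKM in cultures 1, 2 and 3, from 62, 171 and 282 reads. Culture 3 was highest and culture 1 lowest under all 3 scalings, 3.64-fold apart in the deposited values and 2.88-fold when scaled to protein-coding reads. The mean of 1.12 ± 0.641 RPKM (SD, n = 3) was not decided (limma, adjusted p = 0.91).

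The neighbouring P14ARF entry (ENSSSCG00000005134, chromosome 1, 200774496 to 200798854), paired with CDKN2A by its ID, had 0.156, 0.158 and 0.107 RPKM from 14, 17 and 12 reads. In mouse and human the locus encodes both p16 and ARF, a protein that restrains MDM2, and the values of a single entry do not separate them. The level was below 1 RPKM (limma, adjusted p = 2.0e-10), and 50.8% of the genes tested had a lower mean. The counts exceed the limit of 3 reads that a count of 0 allows, which is 0.033, 0.028 and 0.027 RPKM here, yet they are of the size of the median gene, at 0.144, 0.151 and 0.091 RPKM. CDKN2B RPKM was 3.11-fold, 7.07-fold and 16.5-fold that of the P14ARF entry in cultures 1, 2 and 3.

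The other INK4 inhibitors and the pocket proteins they act through were all expressed. All 5 genes of that list lay above 1 RPKM, with list medians of 4.65, 7.73 and 3.72 RPKM in cultures 1, 2 and 3, against 0.144, 0.151 and 0.091 over all genes tested. As log2(RPKM + 0.5) the list medians were 2.36, 3.04 and 2.08, against 2.52, 2.89 and 2.72 over all expressed genes. The pocket proteins RBL2, RB1 and RBL1 were highest, at 8.67 ± 3.91, 7.68 ± 0.543 and 5.07 ± 2.52 RPKM (SD, n = 3 each). RB1, the retinoblastoma protein, had 7.12, 7.73 and 8.20 RPKM and hardly varied. RBL2 (p130), the pocket protein of quiescent cells, had 4.90, 8.42 and 12.7 RPKM and its gene body overlaps that of AKTIP. The INK4 inhibitor CDKN2C (p18) had 4.65, 4.22 and 1.13 RPKM, with culture 3 low, and its call above 1 RPKM (limma, adjusted p = 0.0014) ended with a plain prior variance (0.054).

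CCND1 (ENSSSCG00000037900, chromosome 2, 3621246 to 3633296) encodes cyclin D1, the partner of CDK4 and CDK6 that growth factors induce. It had 28.5, 48.4 and 34.3 RPKM in cultures 1, 2 and 3, a mean of 37.1 ± 10.2 (SD, n = 3), and was called above 1 RPKM (limma, adjusted p = 8.9e-18). Culture 2 was the highest under all 3 scalings. The lowest was culture 1 in the deposited values and with median-of-ratios factors, and culture 3 when scaled to protein-coding reads (33.3 RPKM in culture 1 and 31.7 in culture 3). CDKN1A exceeded CCND1 by 7.41-fold, 3.59-fold and 7.02-fold in cultures 1, 2 and 3, so the ratio was lowest in culture 2.

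Of 12 matched cyclins and CDKs (CCNA2 was not matched), 10 lay above 1 RPKM, 0 below and 2 were not decided. The highest were the cyclin CCND2 (49.3 ± 9.24 RPKM), which joins CDK4 and CDK6 like cyclin D1, the kinase CDK2 (43.1 ± 3.16) and CDK4 (37.7 ± 6.34, SD, n = 3 each). CDK2 and CDK4 overlap other expressed entries. The mitotic cyclin CCNB1 had 15.4, 27.9 and 3.84 RPKM in cultures 1, 2 and 3, and CCNB2 had 5.78, 10.9 and 1.49. Both were highest in culture 2 and lowest in culture 3, a 7.25-fold and 7.28-fold range. Leaving out culture 1 ended their calls above 1 RPKM (limma, adjusted p = 0.0066 and 0.0077 with it, 0.12 and 0.19 without), and a pseudocount of 1 RPKM ended that of CCNB2 (adjusted p = 0.057). The call of CDK1 (limma, adjusted p = 0.0405) ended without culture 1 (0.17) and without culture 2 (0.57). It also ended with a plain prior variance (0.18), a pseudocount of 1 RPKM (0.074) and genes under a mean of 0.1 RPKM removed (0.11).

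The proliferation list was likewise highest in culture 2. Its 5 matched genes all lay above 1 RPKM, and the names MKI67, RRM2 and AURKA were not matched. The 5 were all highest in culture 2 on the deposited scale, and 4 of 5 under either other scaling. TOP2A, which untangles DNA before mitosis, had 15.7, 42.9 and 6.32 RPKM, the mitotic checkpoint kinase BUB1 had 3.26, 6.90 and 1.09, and the replication helicase subunit MCM6 had 8.13, 22.8 and 10.9. PCNA, the sliding clamp of replication, had 14.5, 16.9 and 12.0 RPKM and overlaps TMEM230 and CDS2. Leaving out culture 1 ended the calls of TOP2A and BUB1 (limma, adjusted p = 0.0013 and 0.0049 with it, 0.080 and 0.20 without), and leaving out culture 2 ended that of BUB1 (0.0564). A plain prior variance (0.077) and a pseudocount of 1 RPKM (0.0562) also ended the call of BUB1. That of MCM2, a further helicase subunit with 1.64, 6.67 and 1.37 RPKM, ended under both of these (limma, adjusted p = 0.11 and 0.083), without culture 1 (0.075) and without culture 2 (0.27). Over all expressed genes, 54.4% were highest in culture 2 on the deposited scale, 17.1% with median-of-ratios factors and 40.8% when scaled to protein-coding reads. In culture 2, where most of these genes were highest, CDKN1A, CDKN1B and CDKN1C were each at their lowest, under all 3 scalings. For CDKN1C the Poisson intervals of cultures 2 and 3 overlapped. Of all expressed genes, 12.2% were lowest in culture 2 on the deposited scale. That share was 34.5% with median-of-ratios factors and 18.6% when scaled to protein-coding reads. With 3 cultures these are descriptions of the values, and no correlation was taken.

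Of 14 matched E2F and DREAM genes (RBBP4 was not matched), which hold or release the transcription of cell cycle genes, 9 lay above 1 RPKM, 1 below and 4 were not decided. The highest were E2F4 (7.62 ± 2.92 RPKM), the E2F of quiescent cells, its dimer partner TFDP1 (7.33 ± 1.79) and LIN54 (7.08 ± 1.55), a DNA-binding subunit of DREAM that overlaps THAP9. E2F2 lay below at 0.373 ± 0.262 RPKM. E2F1 had 0.773, 2.97 and 0.569 RPKM and E2F8 had 1.39, 5.33 and 0.792 in cultures 1, 2 and 3, both highest in culture 2. Neither was decided, and E2F8 was called above 1 RPKM without culture 3 (limma, adjusted p = 0.0025) and with a pseudocount of 0.1 RPKM (adjusted p = 0.0062). The call of E2F5 above 1 RPKM (limma, adjusted p = 0.044) ended with median-of-ratios factors (0.054), without culture 2 (0.25) and without culture 3 (0.10). That of LIN9 (limma, adjusted p = 0.016) ended without culture 2 (0.27).

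MDM2 (ENSSSCG00000000488, chromosome 5, 33086994 to 33178089), the ubiquitin ligase that removes p53 and is itself a p53 target, had 11.8, 17.2 and 20.5 RPKM in cultures 1, 2 and 3. The mean was 16.5 ± 4.40 (SD, n = 3), above 1 RPKM (limma, adjusted p = 5.6e-15). Culture 3 was highest and culture 1 lowest under all 3 scalings, 1.74-fold apart in the deposited values, 2.03-fold with median-of-ratios factors and 1.38-fold when scaled to protein-coding reads. A pair of other entries lies within or across its gene body, an unnamed one and CPM, with reads of at most 2.30% of those of MDM2. CDKN1A RPKM was 17.9-fold, 10.1-fold and 11.7-fold that of MDM2 in cultures 1, 2 and 3, a mean log2 ratio of MDM2 over CDKN1A of -3.69 ± 0.43 (SD, n = 3).

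GDF15 (ENSSSCG00000034260, chromosome 2, 59408904 to 59411358) encodes a secreted stress cytokine of the TGF-beta superfamily. It had 3.06, 4.87 and 15.3 RPKM in cultures 1, 2 and 3, from 193, 369 and 1204 reads. Culture 3 stood 4.99-fold above culture 1, and the Poisson intervals of the 3 cultures were separate, at 2.65 to 3.53, 4.39 to 5.40 and 14.4 to 16.2 RPKM. Such separation does not single out GDF15, since 23 of 24 pairs of cultures over the 8 genes had separate intervals. The share over all genes was not counted. The mean of 7.74 ± 6.60 RPKM (SD, n = 3) lay above 1 RPKM (limma, adjusted p = 9.7e-05). Its log2 SD of 1.11 was larger than that of 96.0% of expressed genes, and the spread test gave an unadjusted p of 0.018 and an adjusted p of 0.70. Without culture 3 its log2 SD was 0.42, so the spread rests largely on that culture. The gene lies within LRRC25, whose reads came to at most 6.78% of its own. Relative to CDKN1A, GDF15 was 69.0-fold, 35.7-fold and 15.7-fold lower in cultures 1, 2 and 3, and relative to MDM2 it was 3.84-fold, 3.52-fold and 1.34-fold lower. The higher level in culture 3 was therefore also seen within the library, against both of these genes.

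**Figure D3:**
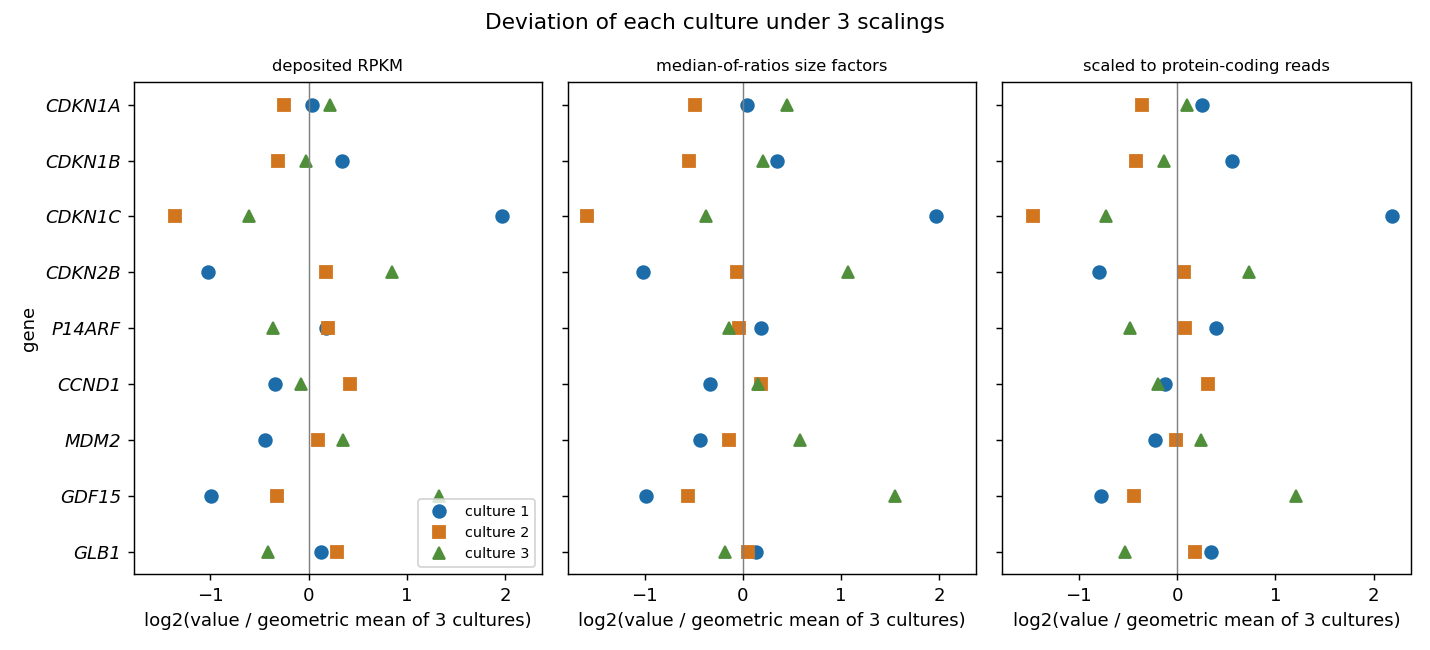
Log2 of each culture's value over the geometric mean of the 3 cultures, for the 8 genes and the P14ARF entry, in the deposited RPKM and under 2 other scalings. MDM2, GDF15 and CDKN2B are highest in culture 3 and lowest in culture 1 in each panel, CDKN1B and CDKN1C are highest in culture 1 and lowest in culture 2 in each, and the order of GLB1 changes.

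MDM2, GDF15 and CDKN2B shared the order of culture 3 above 2 above 1 under all 3 scalings. Among all 10474 expressed genes, 19.1% had that order in the deposited values, 42.4% with median-of-ratios factors and 12.4% when scaled to protein-coding reads. CDKN1B and CDKN1C shared the order of culture 1 above 3 above 2, which 8.01%, 16.0% and 14.03% of the genes had under the same scalings. CDKN1A, the p53 target with the highest level, did not follow MDM2 and GDF15.

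Of 15 genes that regulate p53 or are related to it, 12 lay above 1 RPKM, 2 below and 1 was not decided. The p53 relatives TP63 and TP73 lay below, at 0.041 ± 0.031 and 0.026 ± 0.017 RPKM. The highest were CHEK1 (57.7 ± 15.4 RPKM), a checkpoint kinase that overlaps the expressed genes EI24 and STT3A so that its reads cannot be assigned to it, the deubiquitinase USP7 (28.7 ± 3.20), which stabilises MDM2 and p53, and the acetyltransferase EP300 (19.5 ± 1.46). ATM, the kinase that activates p53 after DNA breaks, had 4.82, 13.8 and 13.6 RPKM, with culture 1 low. DAXX, a partner of MDM2, had 4.91, 11.1 and 7.34 RPKM. The list median was 3.98, 6.45 and 5.59 RPKM in cultures 1, 2 and 3.

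Of 31 further p53 target genes 25 were matched, of which 20 lay above 1 RPKM, 4 below and 1 was not decided. The unmatched names were BAX, TNFRSF10B, PHLDA3, EDA2R, BTG2 and TRIAP1. CCNG1 (cyclin G1, an MDM2 partner) was the highest at 154, 166 and 181 RPKM, a mean of 167 ± 13.8 (SD, n = 3), and the order of the cultures changed with the scaling. PLK2, a kinase of the stress response, had 75.3, 34.0 and 62.5 RPKM, and ZMAT3, an RNA-binding protein, had 34.8, 48.6 and 74.5. PLK2 was lowest in culture 2, as CDKN1A was, whereas ZMAT3 had its lowest value in culture 1 and its highest in culture 3, as MDM2 and GDF15 did. XPC, a DNA damage sensor of nucleotide excision repair that overlaps TMEM43, had 4.06, 9.88 and 11.5 RPKM.

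The p53 targets below 1 RPKM were BBC3 (PUMA), which triggers apoptosis, at 0.415 ± 0.044 RPKM, the mitochondrial reductase FDXR at 0.428 ± 0.113, the mitochondrial quality control gene SPATA18 at 0.132 ± 0.029 and the ceramidase ACER2 at 0.202 ± 0.155 (SD, n = 3 each). The list's median was 4.70, 7.86 and 6.27 RPKM in cultures 1, 2 and 3, against 0.144, 0.151 and 0.091 over all genes tested. On the deposited scale 3, 10 and 8 of the 21 expressed targets were highest in cultures 1, 2 and 3. These numbers were 4, 3 and 14 with median-of-ratios factors, and 7, 9 and 5 when scaled to protein-coding reads. The list as a whole thus had no order of cultures that held under each scaling. Of all expressed genes, 22.3%, 54.4% and 23.3% were highest in cultures 1, 2 and 3 on the deposited scale. The shares were 22.1%, 17.1% and 60.8% with median-of-ratios factors, and 42.2%, 40.8% and 17.0% when scaled to protein-coding reads.

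**Figure D4:**
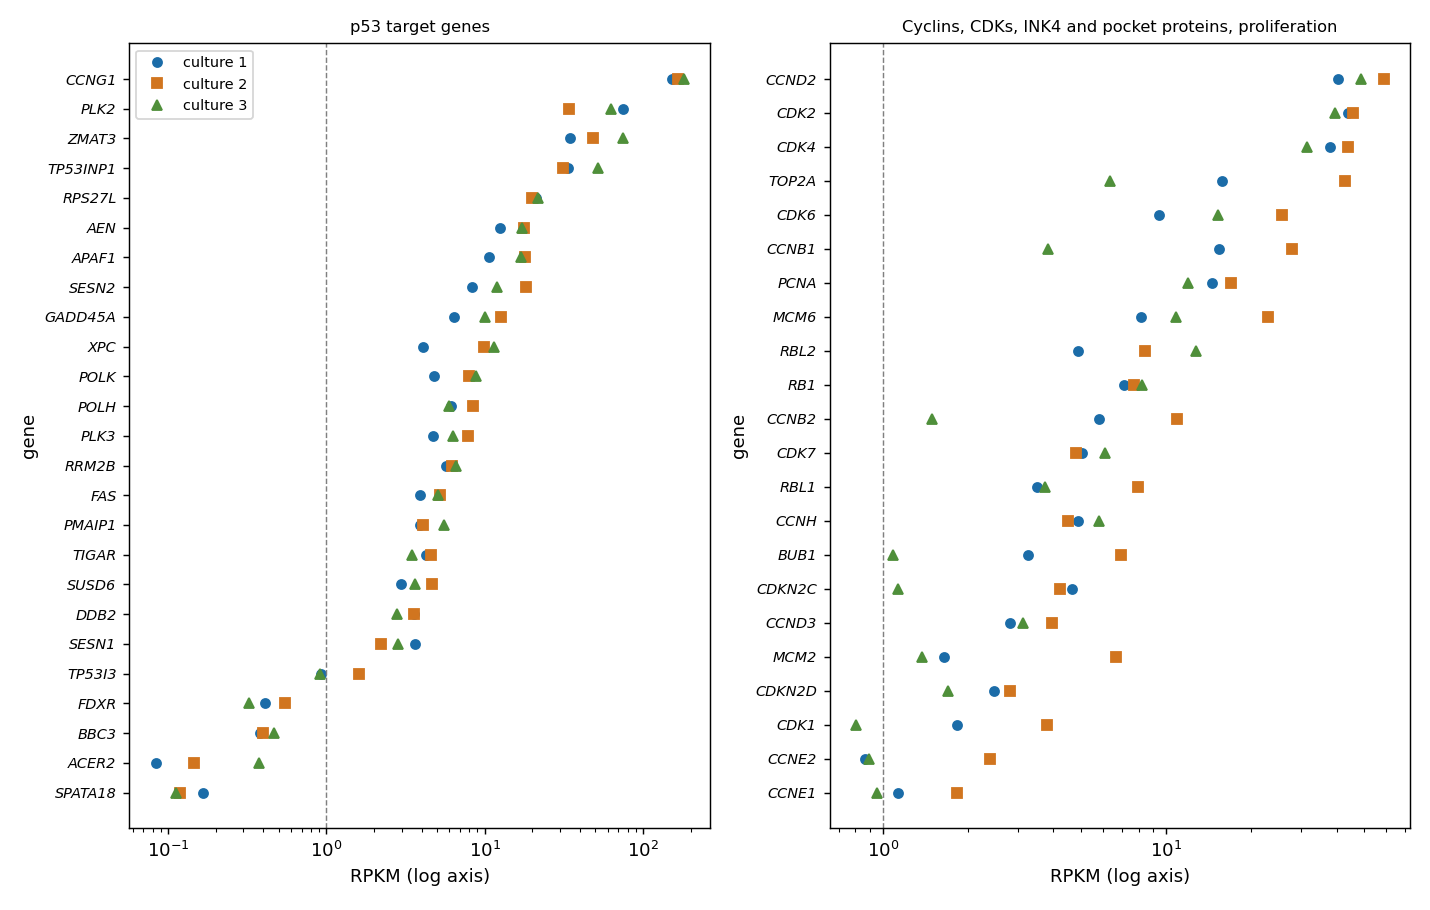
RPKM on a log axis in cultures 1, 2 and 3 for p53 target genes (left) and for cyclins, CDKs, INK4 inhibitors, pocket proteins and proliferation genes (right), with 1 RPKM dashed. On the right TOP2A, CCNB1, CCNB2 and BUB1 have their highest value in culture 2 and their lowest in culture 3, and on the left CCNG1 leads at 154 to 181 RPKM.

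Genes that make and break down p27 were expressed in all cultures. All 7 matched genes lay above 1 RPKM, and CKS1B was not matched. The call of FOXO4 (1.69 ± 0.343 RPKM, SD, n = 3, limma, adjusted p = 0.046) ended without any 1 of the cultures (0.076 to 0.18) and with median-of-ratios factors (0.062). The ubiquitin ligase subunits RBX1 (54.3 ± 7.40 RPKM), SKP1 (37.1 ± 2.18) and CUL1 (16.4 ± 2.06, SD, n = 3 each) were highest. SKP2, the subunit that recognises p27, had 4.24, 6.15 and 3.88 RPKM in cultures 1, 2 and 3, highest in culture 2 where CDKN1B was lowest. FOXO1, a transcription factor that activates CDKN1B, had 4.61, 5.95 and 10.0 RPKM, lowest in culture 1 where CDKN1B was highest. Both positions were common. The shares of expressed genes highest in culture 2 were 54.4% (deposited), 17.1% (median-of-ratios factors) and 40.8% (scaled to protein-coding reads). The shares lowest in culture 1 were 57.0%, 55.0% and 34.6% under the same scalings.

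Genes of the integrated stress response, through which GDF15 can be induced without p53, were above 1 RPKM in 5 of 5 cases, and both receptor genes were below. The transcription factor ATF4 had 56.0, 86.0 and 70.0 RPKM in cultures 1, 2 and 3, and TRIB3, its target, had 18.7, 29.1 and 25.5. Both were highest in culture 2 in the deposited values and when scaled to protein-coding reads, and highest in culture 3 with median-of-ratios factors. DDIT3 (CHOP) had 24.2, 20.9 and 25.7 RPKM and overlaps MARS1 and a further entry paired with its own name. ATF3 had 1.21, 2.33 and 3.72 RPKM, the same order as GDF15, and its call above 1 RPKM (limma, adjusted p = 0.0030) did not hold when culture 3 was left out (adjusted p = 0.15) or with a plain prior variance (adjusted p = 0.0501). The GDF15 receptor GFRAL, known from the mouse and human hindbrain, had 0.032 ± 0.021 RPKM, and its co-receptor RET had 0.072 ± 0.035 (SD, n = 3 each).

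GLB1 (ENSSSCG00000024119, chromosome 13, 18878612 to 18953146) encodes lysosomal beta-galactosidase, the enzyme behind the staining of senescent cells. It had 44.1, 49.4 and 30.3 RPKM in cultures 1, 2 and 3, a mean of 41.3 ± 9.86 (SD, n = 3), above 1 RPKM (limma, adjusted p = 4.3e-18). Culture 3 was lowest under all 3 scalings. The highest was culture 2 in the deposited values and culture 1 under both other scalings. The range was 1.63-fold in the deposited values, 1.25-fold with median-of-ratios factors and 1.84-fold when scaled to protein-coding reads. Culture 3, which had the most GDF15 and CDKN2B, thus had the least GLB1. It was also the lowest culture for 30.8%, 10.5% and 46.8% of expressed genes under the same scalings.

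All 13 genes of the lysosomal list lay above 1 RPKM. The membrane proteins LAMP2 (37.0 ± 13.7 RPKM) and LAMP1 (35.8 ± 2.14) and the hexosaminidase subunit HEXA (27.7 ± 1.19, SD, n = 3 each) were highest, all below the mean of GLB1. Within single cultures, LAMP2 exceeded GLB1 in cultures 1 and 3, and LAMP1 and CTSA exceeded it in culture 3, CTSA narrowly (30.9 against 30.3 RPKM). LAMP1 had 38.3, 34.6 and 34.6 RPKM in cultures 1, 2 and 3, and HEXA had 26.9 to 29.0, and both were lowest in culture 3, as GLB1 was, only when scaled to protein-coding reads. LAMP2 had 51.0, 23.6 and 36.4 RPKM, lowest in culture 2. The list's partners of beta-galactosidase in its lysosomal complex, CTSA, NEU1 and GALNS, had 26.3 ± 4.46, 2.27 ± 0.172 and 1.96 ± 0.660 RPKM (SD, n = 3 each). The acid glucosidase GAA had 0.976, 2.59 and 1.99 RPKM. The calls of GALNS and GAA ended when culture 2 (limma, adjusted p = 0.19 and 0.35) or culture 3 (0.087 and 0.19) was left out. GAA also lost its call with median-of-ratios factors (limma, adjusted p = 0.053), with a plain prior variance (0.088) and with genes under a mean of 0.1 RPKM removed (0.065).

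For each of the 8 genes, the named gene of most similar values was found by the Euclidean distance of log2(RPKM + 0.5) over the 3 cultures. HNRNPM was closest to CCND1 (distance 0.075), with 27.6, 46.5 and 34.0 RPKM in cultures 1, 2 and 3, and UBE2B was closest to CDKN1B (0.083). TTC3 was closest to MDM2 (0.096), ATP5F1D to GLB1 (0.13) and TNFAIP3 to GDF15 (0.16), the last with 3.47, 4.97 and 15.2 RPKM. MS4A7 was closest to CDKN1C (0.25) with 3.49, 0.477 and 0.497 RPKM, and it overlaps an unnamed gene with reads. An entry named U6 that lies within COL12A1 and had 3, 7 and 11 reads was closest to CDKN2B (0.14). CDKN1A had no neighbour as near, the closest being STPG4 at a distance of 0.41. With 3 cultures, such closeness describes levels and no more.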

How the data were processed

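RNA of 3 pig adipose-derived MSC cultures was sequenced from TruSeq V2 libraries made with 0.5 µg of total RNA, per the labels' protocols. The authors deposited RPKM for 30477 genes, per the file headers, and the submitters' processing notes name the build susScr11. Which aligner, counter, annotation release and strandedness were used is not given in the sources used here. Without strand, overlapping genes can share reads. RPKM times model length plus 1 base gave whole reads for 100% of values (tolerance 1e-06 of a read), from which depths, counting intervals and the floor of 3 reads were computed. Names are the table's, and 785 of 14012 unnamed genes were named by ID.

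The level test was limma 3.58.1 in R 4.3.3 (trended, robust) on log2(RPKM + 0.5) against 1 RPKM, over 29479 genes with a read. The spread test divided the variance between cultures by limma's prior variance, by an F test over 10474 genes. Both used Benjamini-Hochberg adjustment at 0.05 and were tested on simulated data, in which the spread test seldom recovered the smallest simulated spread, itself larger than that of any of the 8 genes. The planned ratio of CDKN2A to CDKN2B used the P14ARF entry. Members, lists, tests and alternatives were chosen with earlier results of these data known. Named from each list were the 3 of highest mean RPKM, those called below 1 RPKM, and the 2 of largest log2 SD among genes of mean 1 RPKM or more. A gene of the rule is not reported here. CTSA, NEU1, GALNS, FOXO4, MCM2, CDK1, E2F5 and LIN9 were named after their values were seen. The gene nearest to each member was also named. No sequence is shown, since the reference tables used hold none.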

Additional observations from a re-analysis of the deposited data

How the results depend on the processing

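The 6 genes called above 1 RPKM kept that call under each alternative run at this level, and their number was 6 without any 1 culture. When the level was set to 5 RPKM, 5 of the 8 genes were above it and 2 below (CDKN1C and CDKN2B), and GDF15 was not decided. Of all genes, 4513 were above it. Restricting the test to genes of mean 0.1 RPKM or more left 3956 genes below. Leaving out 1 culture gave 0 to 1 of the 8 genes below 1 RPKM. CDKN1C changed side at a log2 difference of -0.0085 with a pseudocount of 0.1 RPKM, -0.12 with voom weights, and -0.60 to 0.54 without 1 culture. CDKN2B did so at -0.00081 with a pseudocount of 0.1 RPKM and at -0.25 to 0.35 without 1 culture. Genes called by the spread test numbered 0 as fitted (621 at an unadjusted p under 0.05), 15 with median-of-ratios factors, 123 with no filter on the mean and 0 to 131 without 1 culture. None of the 8 genes was among them, which does not show that the cultures were alike in them. CDKN1C without culture 1 and CDKN2B without culture 3 fell under the mean of 1 RPKM and were not tested for spread there. A fit with gene-wise prior degrees of freedom, added after seeing the data, also called 0 genes. The log2 ratio of P14ARF to CDKN2B was -2.84 without a pseudocount and -1.26 with 0.5 RPKM, since both lie near that pseudocount. Proliferation genes above 1 RPKM numbered 3 with a pseudocount of 1 RPKM and 2 to 5 without 1 culture. Without 1 culture, E2F and DREAM genes numbered 7 to 9 above and 1 to 2 below, and cyclins and CDKs 7 to 10 above. Where no construction of the alternative explains it, the cause was not tested. No paired analysis was possible because the labels name a single group. Depth limits the P14ARF entry (12 to 17 reads) and CDKN1C in culture 2 (36 reads) most.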
